A study of Mus musculus with 40 samples.

Results

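The genes described here encode the core of Mediator and part of RNA polymerase II in mouse embryonic stem cells (mESCs). They were chosen by name: 26 genes for Mediator subunits outside the CDK8 kinase module, and *Polr2a* to *Polr2e*, which encode 5 subunits of RNA polymerase II and are not Mediator subunits. All 31 were found among the 55536 genes of the count tables, each under 1 identifier, and all 31 had enough counts to be tested in every comparison. The 26 Mediator genes were divided into 7 of the head, 9 of the middle, 5 of the tail, 4 (*Med27*, *Med28*, *Med29* and *Med30*) placed between head and tail, and the scaffold gene *Med14*.

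Poly(A) RNA was sequenced from wild-type (WT) mESCs and from mESC clones lacking *Ccnc* (cyclin C; clones D1, G2 and H5) or *Cdk8* (clones B9, H4 and C8), grown in serum and leukaemia inhibitory factor on gelatin. Each clone, and each of 2 WT replicates, was given either the vehicle DMSO or the ATR kinase inhibitor AZD6738 (ATRi) at 900 nM for 4 h before collection. The libraries were sequenced in 2 multiplexes of 10, one with the *Ccnc* KO and one with the *Cdk8* KO clones, and the same 4 WT libraries were sequenced in both, so that comparisons with WT in the 2 multiplexes share their control RNA. A knockout is represented here by 3 clones and the control by 2 replicates. The study describes these as independent knockout clones and biological replicates of WT. The p-values measure only the spread between the libraries. The genotype fits enter the DMSO and ATRi libraries of a clone or WT replicate as separate replicates, although they come from the same cells. Genotype p-values can thus be too small and intervals too narrow.

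Mediator is a large complex that carries signals from transcription factors bound at enhancers to RNA polymerase II at promoters. Its head and middle modules contact the polymerase, its tail is bound by many activators, *Med14* runs through the complex as a backbone, and a separable kinase module of CDK8 or its paralogue CDK19, cyclin C, MED12 and MED13 can dock on the core and block its contact with the polymerase. Head, middle and scaffold subunits are needed for most transcription and for the viability of many cell types, whereas several tail subunits are required at particular genes.

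Promoter sequences are shown for 3 genes to which the ATRi comparisons below return: *Polr2a*, *Polr2b* and the middle subunit gene *Med1*. RefSeq (GRCm38.p6) held a promoter for 26 of the 31 genes; *Med8*, *Med23*, *Med24*, *Med30* and *Polr2d* had none. The 250 bases before the RefSeq start are printed 5′ to 3′ on the strand of the gene. RefSeq and GENCODE M21, the annotation used for the counts, do not always place the start at the same base. The *Polr2a* starts are 4 bases apart, but the RefSeq starts of *Med1* and *Polr2b* lie 387 and 337 bases inside the gene as GENCODE bounds it, 49 and 7 bases from the start of another GENCODE transcript, so that both windows fall within the GENCODE gene. Over the 26 genes, 4 windows did so, and 25 RefSeq starts were within 50 bases of some GENCODE transcript start. Capitals mark the matches, on either strand, to the motifs named after them. *Polr2a* lies on the minus strand (chr11:69758634-69758883), as does *Med1* (chr11:98192907-98193156), and *Polr2b* on the plus strand (chr5:77310234-77310483).
Polr2a: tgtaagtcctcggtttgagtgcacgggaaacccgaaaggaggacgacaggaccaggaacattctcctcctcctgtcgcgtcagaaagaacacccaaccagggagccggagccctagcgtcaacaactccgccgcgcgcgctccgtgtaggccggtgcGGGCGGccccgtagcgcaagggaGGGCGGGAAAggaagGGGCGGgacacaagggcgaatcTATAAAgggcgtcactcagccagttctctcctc
Polr2b: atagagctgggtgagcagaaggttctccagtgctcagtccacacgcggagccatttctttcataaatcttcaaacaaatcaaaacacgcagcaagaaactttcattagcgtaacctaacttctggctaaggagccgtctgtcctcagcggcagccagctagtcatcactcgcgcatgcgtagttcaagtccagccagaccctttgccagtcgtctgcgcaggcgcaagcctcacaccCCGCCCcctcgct
Med1: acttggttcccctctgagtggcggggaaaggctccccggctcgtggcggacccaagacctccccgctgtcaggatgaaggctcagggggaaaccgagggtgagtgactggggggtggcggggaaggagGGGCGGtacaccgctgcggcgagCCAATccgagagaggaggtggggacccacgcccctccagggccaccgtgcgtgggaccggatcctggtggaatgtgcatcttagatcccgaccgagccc
*Polr2a* held 3 matches to the GC box GGGCGG, which is bound by SP factors, at 93 to 88, 70 to 65 and 55 to 50 bases before the RefSeq start, and a TATA box, TATAAA, at 33 to 28. An E2F site, searched as TTTGGCGC or TTTCCCGC, was at 68 to 61 in *Polr2a*, where it overlaps the GC box at 70 to 65. Counted from the RefSeq start, *Polr2b* had a GC box at 13 to 8 and *Med1* a GC box at 122 to 117 and the letters CCAAT at 99 to 95.

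The promoters of the set were rich in CpG. The median promoter held 14 CpG dinucleotides, against 6 over all 32851 promoters of the same length, at a median GC content of 54.2% against 52.4%. A GC box was present in 57.7% of them (15 of 26) against 32.7% of all promoters, and CCAAT in 42.3% (11) against 33.8%. The ETS motif CCGGAA was in 26.9% (7) against 12%, and the E2F site in 19.2% against 1.3%. Those with the E2F site were *Med6*, *Med9*, *Med14*, *Polr2a* and *Polr2c*. TATAAA was in 19.2% against 12.4%: *Med7*, *Med16*, *Med28*, *Polr2a* and *Polr2c*. The E-box CACGTG was found in 1 (*Med17*; 3.8% against 6.0%) and the cyclic AMP response element TGACGTCA in 1 (*Med21*; 3.8% against 1.5%). The NRF1 site, searched as a single fixed sequence with no mismatch allowed, was in 0 of 26 against 0.8% of all promoters. Near matches were not counted, and the *Polr2b* window printed above holds one. The 0 thus does not show that these promoters lack NRF1 sites. For each gene of the set the RefSeq promoter nearest its GENCODE start was used. The 32851 promoters were not chosen in this way and were not matched on expression. These shares are descriptions of the letters in the window, and no test was made of them.

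The libraries held 30899823 to 67274049 counts (median 41972557, both sequencing lanes summed). *Ccnc* was at 4.24 to 7.41 counts scaled to library size in the usual way (CPM) in the *Ccnc* KO libraries against 43.3 to 45.4 in WT, and *Cdk8* at 52.4 to 64.3 CPM in the *Cdk8* KO libraries against 71.1 to 78.8 in the WT libraries used. *Cdk8* RNA was thus lower but still present in the knockout, and WT replicate 2 under ATRi, at 57.2 CPM, lay inside the knockout range. One library stood apart: WT replicate 2 under ATRi lay above every other library of its multiplex in 12 (*Ccnc* multiplex) and 13 (*Cdk8* multiplex) of the 31 genes and below every other in 6 and 7. It did so across the genome as well, lying above every other library in 19.1% and 19.9% of all tested genes and below in 23.2% and 25.1%. In both multiplexes at once these shares were 14.1% above and 17.3% below. The study left this library out of its comparisons, and it was left out of the fits below except where it is named. Each fit thus had 9 libraries, 3 of WT and 6 of knockout clones.

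Embryonic stem cell markers were abundant in every library, and markers of another cell type moved with the genotype. WT sums below are those of the DMSO libraries of the *Ccnc* multiplex. The summed level of 11 primitive endoderm markers was 211 to 240 CPM in WT, 320 to 456 CPM in *Ccnc* KO and 591 to 733 CPM in *Cdk8* KO under DMSO. By edgeR, 9 of these 11 genes were higher in *Ccnc* KO and 11 of 11 in *Cdk8* KO. Over all tested genes 12.3% and 4.31% were called in either direction, and 26.7% and 21.3% had an unadjusted p under 0.05. The sum of 10 embryonic stem cell markers was 5013 to 5389 CPM in WT, 4439 to 4866 in *Ccnc* KO and 3697 to 4618 in *Cdk8* KO, with 4 and 2 of the 10 lower. Of 8 trophectoderm markers 5 were higher in *Ccnc* KO (58.2 to 69.7 CPM summed in WT, 72.2 to 106 in *Ccnc* KO) and 0 of 7 tested passed in *Cdk8* KO (61.4 to 305 CPM; 4 at an unadjusted p under 0.05). Of 8 neuroectoderm markers 5 were tested in *Ccnc* KO, where 1 was higher and 2 lower (64.9 to 66.4 CPM in WT, 52.9 to 64.0 in *Ccnc* KO), and 0 of 6 tested passed in *Cdk8* KO (56.3 to 117 CPM; 3 at an unadjusted p under 0.05). Fibroblast markers summed to 6.79 to 6.96 CPM in WT with *Lum*, *Postn* and *Col3a1* at 0 counts, to 8.88 to 13.1 in *Ccnc* KO and to 10.8 to 22.5 in *Cdk8* KO, with 0 called in either and 3 of 4 and 3 of 6 tested at an unadjusted p under 0.05. In these bulk libraries fewer cells of a type and less RNA per cell cannot be told apart. No marker of these lists was called under ATRi by edgeR, where 1.11% and 0.0855% of all tested genes were in the *Ccnc* and *Cdk8* multiplex. Of 10 embryonic stem cell markers 2 had an unadjusted p under 0.05 in each multiplex and of 11 primitive endoderm markers 0. The shares of all tested genes were 16.2% and 11.5%. The part of other cell types in the genotype values below was not tested.

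All 31 genes were well expressed in WT cells, over a 25.3-fold range per length. Levels are CPM per kilobase of exon (RPKM), as mean ± SD of the 3 WT libraries of the *Ccnc* multiplex (n = 3, of which 2 under DMSO and 1 under ATRi). *Polr2a*, the catalytic subunit that carries the C-terminal repeat domain, was the highest at 123 ± 22.4 RPKM, with the widest spread, from 104 to 148. *Polr2e*, shared by all the nuclear RNA polymerases, stood at 97.9 ± 2.45, *Polr2d*, of the polymerase stalk, at 89.8 ± 2.72, *Polr2b*, the other catalytic subunit, at 66.9 ± 4.09, and *Polr2c* at 18.2. By exon length 4 of these 5 genes were above every Mediator gene.

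Among the Mediator genes the head was the most abundant by its median, 26.7 RPKM, running from *Med20* at 6.25 to *Med6* at 46.0 ± 1.16, the highest Mediator gene by exon length. *Med11* was at 37.0, *Med17*, around which the head is built, at 27.3, *Med22* at 26.7, *Med8* at 20.2 and *Med18* at 7.96. The middle had a median of 19.5 RPKM, from *Med10* at 10.96 to *Med9* at 37.1, with *Med1*, which nuclear receptors bind, and *Med26*, a docking site for elongation factors, at 19.5 and 16.2. *Med19*, which joins the middle module to the polymerase, was at 34.8, *Med7* at 25.9, *Med21* at 23.3, *Med4* at 18.6 and *Med31* at 16.2. These 9 genes thus lay closer together than those of the head. The tail had a median of 11.9 RPKM, from *Med15* at 5.59 ± 0.117 to *Med24* at 30.3, with *Med25*, a target of viral and cellular activators, at 20.8, *Med23* at 11.9 and *Med16* at 10.2. The genes between head and tail had a median of 10.5 RPKM, from *Med27* at 9.16 to *Med30* at 24.6, with *Med29* at 11.01 and *Med28* at 10.04. The scaffold gene *Med14* was the lowest of the 31 at 4.85 ± 0.173.

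Of the 30 pairs of neighbours in this order, 15 had overlapping WT ranges and cannot be placed apart. The order was nearly the same in the *Cdk8* multiplex (Spearman's rho 0.998 over 31 genes), where the WT RNA is shared. Length matters more: with the length of the transcript that has the longest coding sequence in place of all exons, an alternative added after the data were seen, the range widened to 37.3-fold, the median of the 26 Mediator genes moved from 19.0 to 29.0 RPKM and *Polr2e* stood above *Polr2a*. By that length *Med21* (101 RPKM) and *Med22* (99.3) were the highest Mediator genes and stood above *Polr2d* (89.8), *Med11* (87.0) stood above *Polr2b* (75.3), and *Med6* was at 62.9, so that the order of the upper genes depends on the length used. *Med14* was the lowest with either length (rho of the 2 orders 0.812).

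**Figure D1:**
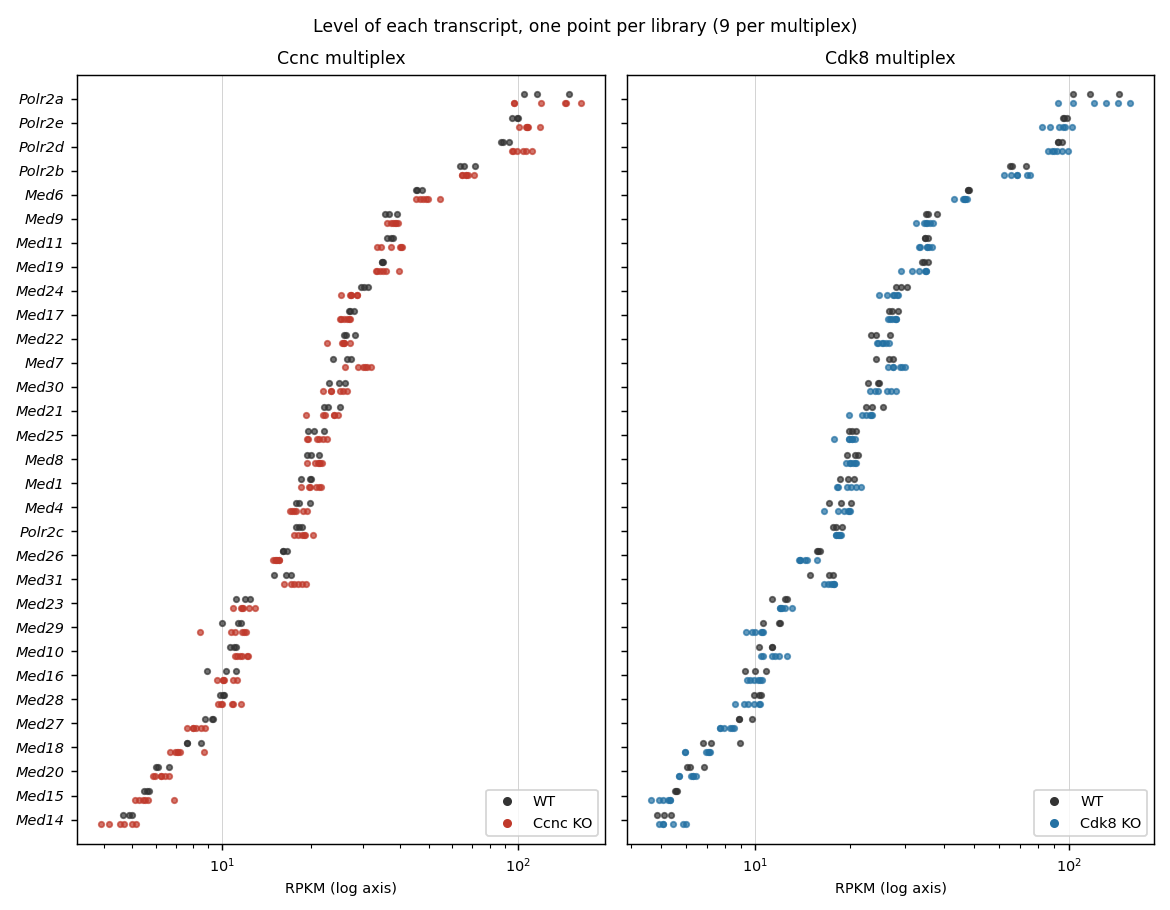
RPKM of the 31 genes on a log axis, ordered by their WT level, in the *Ccnc* multiplex (left) and the *Cdk8* multiplex (right), a point for each of the 9 libraries used (WT dark, knockout coloured and set lower). *Polr2a*, *Polr2e*, *Polr2d* and *Polr2b* lie above every Mediator gene by the exon length plotted (not by coding transcript length), *Med14* is the lowest at a WT mean of 4.85 RPKM, and WT and knockout points overlap for most genes.

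The genes varied little between libraries. Over the 9 libraries of a multiplex, knockouts and treatments together, the coefficient of variation of the CPM had a median over the 31 genes of 6.15% in the *Ccnc* and 6.07% in the *Cdk8* multiplex, against 14.5% and 15.5% over all tested genes. The lowest were *Med26* at 3.36% and *Polr2c* at 2.24%, and *Polr2a* was the highest in both, at 19.5% and 17.9%. Each of the 31 had a higher CPM than at least 55.6% of the tested genes, and no comparison matched on level was made.

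**Figure D2:**
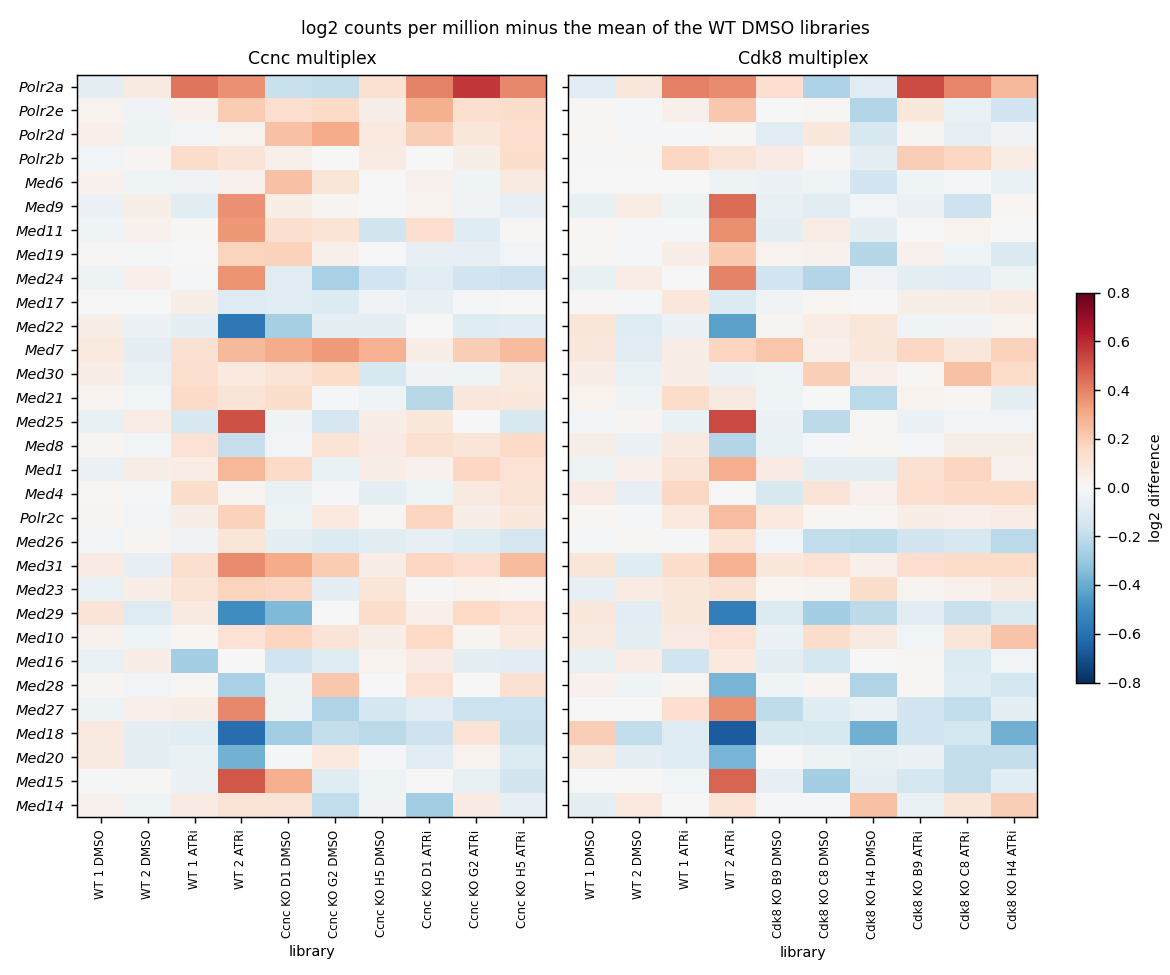
Log2 CPM of each gene minus its mean in the WT DMSO libraries of the same multiplex, shown as colour (red higher, blue lower), with the 31 genes in rows by level and all 10 libraries of each multiplex in columns. *Polr2a* is red in every ATRi library, and the column of WT replicate 2 under ATRi stands out in both multiplexes.

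The first question was whether loss of the kinase module's cyclin changed the RNA of the core it docks on. In *Ccnc* KO cells 0 of the 31 genes passed an adjusted p of 0.05 (edgeR quasi-likelihood test, treatment as a term), where 12.3% of all 18577 tested genes did. At an unadjusted p under 0.05 there were 5 (16.1%), against 26.7% of all genes, and with DESeq2, or with no filter on low counts, 2 of 31 (*Med7* and *Polr2d*) passed the adjusted threshold, where 15.7% and 10.1% of all genes tested in those settings did. The median log2 fold change of the 26 Mediator genes was 0.016, with 15 above and 11 below 0, and that of all genes 0.003. The median size of change, regardless of sign, was 0.054 for the 31 genes and 0.16 for all genes. No comparison of these sizes matched on level was made, here or in the comparisons below. The 95% intervals of all 31 lay within 0.5 log2 of no change: the furthest bounds were 0.797-fold for *Med18* and 1.28-fold for *Med7*. These intervals count the DMSO and ATRi libraries of a clone as separate replicates and can be too narrow.

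By module the median log2 differences between *Ccnc* KO and WT were 0.01 in the head, 0.04 in the middle, 0.02 in the tail, -0.02 between head and tail and 0.03 in the polymerase genes, and *Med14* was at -0.08. *Med23*, a tail subunit that receives growth factor signals, had the smallest difference of the 31. Its CPM were 74.6, 80.4 and 83.7 in WT, 86.8, 73.3 and 82.9 in clones D1, G2 and H5 under DMSO, and 77.9, 78.8 and 78.3 under ATRi. The groups overlapped fully, and the fold was 1.00 (95% interval 0.914 to 1.103).

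*Med7*, a middle subunit that pairs with *Med21* and *Med31*, had the largest difference of the Mediator genes in *Ccnc* KO. WT libraries were at 76.2 and 68.1 CPM under DMSO and 78.4 under ATRi, and clones D1, G2 and H5 at 88.5, 91.4 and 87.4 under DMSO and 74.8, 82.7 and 86.0 under ATRi. The KO libraries were higher under DMSO, but D1 under ATRi fell inside the WT range. The WT library left out, at 86.2 CPM, was inside the KO range. The log2 fold change was 0.21 (SE 0.068, fold 1.15, unadjusted p = 0.00821, adjusted p = 0.0598 by edgeR).

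*Polr2d* came nearest to the threshold (log2 0.19, SE 0.061, adjusted p = 0.0519 by edgeR). Its CPM were 94.2, 88.9 and 90.3 in WT and 108, 112 and 96.6 under DMSO and 105, 97.5 and 100.3 under ATRi in D1, G2 and H5. Every KO library was above every WT library, which was also so for *Polr2e* (log2 0.13, adjusted p = 0.135), although the WT library left out, at 299 CPM, was inside the KO range for *Polr2e*. The tail gene *Med24* (-0.15, adjusted p = 0.0954) and *Med27* (-0.16, adjusted p = 0.152) were below WT in every KO library, as was *Med26* (-0.08, adjusted p = 0.379). Non-overlapping ranges were thus seen in 5 of 31 genes, 2 higher and 3 lower, and in 14.5% of all tested genes.

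The same comparison for the kinase itself again called none of the set. In *Cdk8* KO cells 0 of 31 genes passed, where 4.31% of 18721 tested genes did, and 4 had an unadjusted p under 0.05 (12.9%, against 21.3% of all genes). DESeq2 called 0 of the 31 as well, and 1733 of all 17269 genes it tested (10%). The median log2 fold change of the 26 Mediator genes was -0.04, with 8 above and 18 below 0, and that of all genes 0.009. The median size of change was 0.046 for the 31 and 0.151 for all genes, again not matched on level. All 31 intervals again lay within 0.5 log2, with the furthest bounds 0.745-fold for *Med18* and 1.19-fold for *Med14*. They too count the libraries of a clone as separate replicates. Deviations of the ATRi and DMSO libraries of clone H4 correlated at 0.802, so these intervals can be too narrow. With the clone as a random block in limma, 237 of 18721 genes were called and 0 of the 31.

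Module medians in *Cdk8* KO were -0.03 log2 in the head, -0.01 in the middle, -0.04 in the tail, -0.13 between head and tail and -0.03 in the polymerase genes, with *Med14* at 0.08. *Med29*, one of the genes between head and tail, had the largest difference (log2 -0.20, SE 0.077, fold 0.869, adjusted p = 0.164 by edgeR). Its CPM were 15.4, 13.5 and 15.3 in WT, and 13.4, 12.5 and 11.99 under DMSO and 13.6, 13.3 and 12.8 under ATRi in B9, H4 and C8. Most KO values were below WT, but the ranges touched at 13.5 to 13.6 CPM, and *Med29* is among the least counted genes here. The WT library left out was at 9.85 CPM, below every KO library. *Med16*, of the tail, had the smallest difference, with 46.4, 50.4 and 43.4 CPM in WT, 46.1, 48.4 and 43.9 in the KO clones under DMSO and 48.9, 47.6 and 44.8 under ATRi, at a fold of 1.00 (0.908 to 1.104).

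*Med27*, next to *Med29* in the complex, was at 29.4, 29.3 and 32.2 CPM in WT and at 25.5, 28.3 and 27.5 under DMSO and 26.3, 27.9 and 25.6 under ATRi in the *Cdk8* KO clones (log2 -0.18, SE 0.066, adjusted p = 0.151). No KO library reached WT. The ranges did not overlap either for *Med26* (-0.14, adjusted p = 0.174), *Med15* (-0.13, adjusted p = 0.234) and the head gene *Med6* (-0.06, adjusted p = 0.473), all lower, and 0 were higher. These were 4 of 31 genes, where 12.6% of all tested genes did not overlap. For *Med6* the WT library left out, at 67.2 CPM, was inside the KO range of 62.2 to 68.6. *Med26* and *Med27* were in both sets of non-overlapping genes, but the WT RNA is the same in both comparisons.

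**Figure D3:**
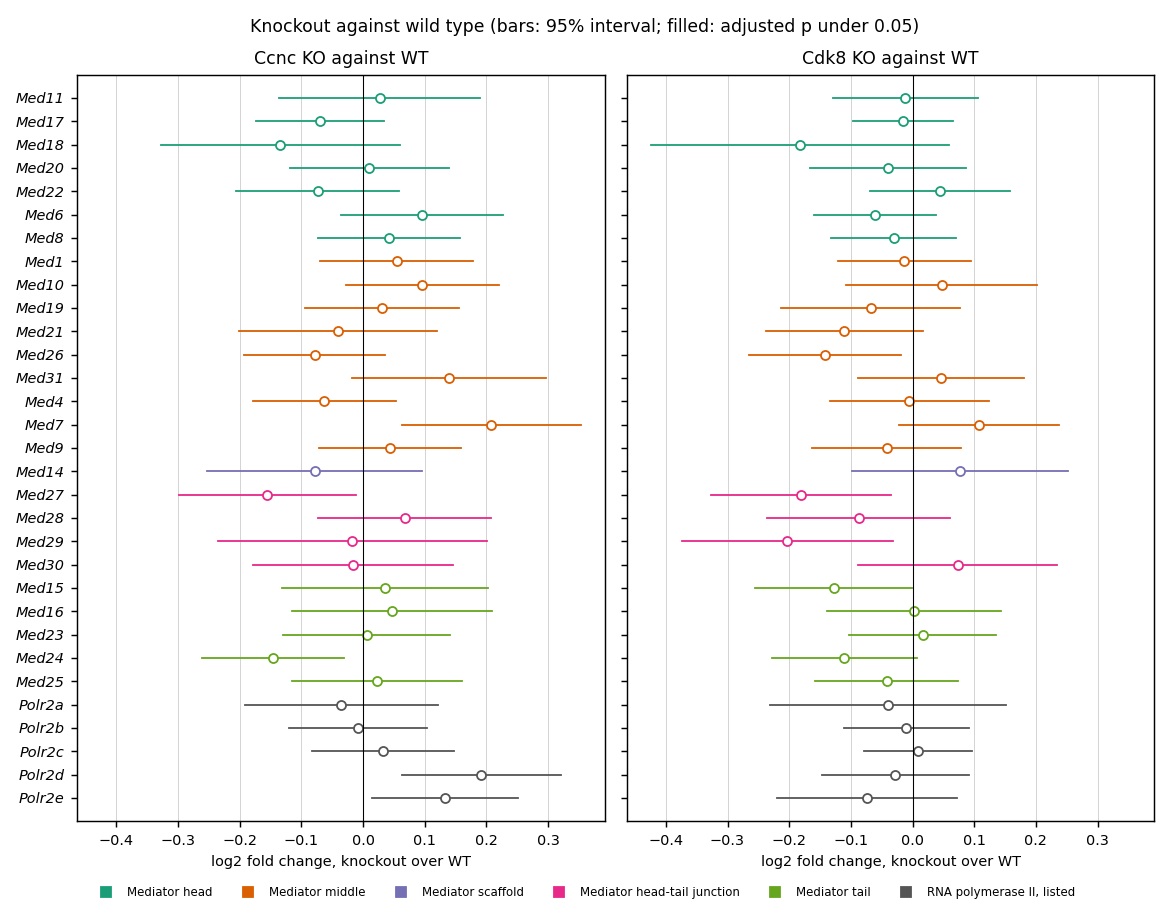
Log2 fold change of each of the 31 genes in *Ccnc* KO (left) and *Cdk8* KO (right) against WT, coloured by module, with bars for the 95% interval and a line at 0; filled points would be genes past the adjusted threshold. All points are open, and all bars stay within 0.5 log2 of 0.

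Setting the knockouts against each other, each relative to the WT libraries of its own multiplex, 0 of 31 genes passed (0.00545% of 18349 tested genes, 1 gene, *Ccnc* itself) and 2 had an unadjusted p under 0.05, against 2.85% of all genes. These were *Polr2d* and *Polr2e*, each 0.21 log2 higher in *Ccnc* KO (adjusted p = 0.998 by edgeR for both). The WT libraries enter this fit once per multiplex, and their 2 runs are not independent replicates. The intervals for the 31 genes ran from -0.40 (*Med14*) to 0.46 (*Med29*), and differences of up to that size between the knockouts lie within them. DESeq2 also called 0 of the 31, and 0.00545% of all genes it tested. The sequencing run itself moved the genes little. In the same 4 WT libraries sequenced in both multiplexes the median size of the difference was 0.021 log2 for the 31 genes and 0.046 for all genes. It was called in 1 of the 31, *Med22* (0.08 higher in the *Ccnc* multiplex, adjusted p = 0.0482), and in 5.03% of 16512 tested genes, and 6 of 31 had an unadjusted p under 0.05 against 16.8%.

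ATR inhibition for 4 h left the Mediator genes near their DMSO levels, while *Polr2a* was higher. ATR is the kinase that responds to stalled replication forks. In the *Ccnc* multiplex, with genotype as a term, 1 of 31 genes passed, *Polr2a*, where 1.11% of all tested genes did, and it was also the only one with an unadjusted p under 0.05 (3.23%, against 16.2%). In the *Cdk8* multiplex 0 of 31 passed (0.0855% of all tested genes) and 4 had an unadjusted p under 0.05 (12.9%, against 11.5%): *Polr2a*, *Polr2b*, *Med1* and *Med4*. With DESeq2 1 of 31 passed in each multiplex, *Polr2a* in both, against 4.47% and 2.79% of all genes it tested.

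*Polr2a* (chr11:69733997-69758637, minus strand) was at 738 and 818 CPM in the DMSO WT libraries of the *Ccnc* multiplex and at 685, 681 and 844 in D1, G2 and H5. Under ATRi it was at 1044 in WT replicate 1 and at 1024, 1148.5 and 1013 in D1, G2 and H5. No ATRi library overlapped the DMSO range. The share of all tested genes separated by treatment in this way was not counted in either multiplex. The ATRi to DMSO ratio was 1.41 in WT replicate 1, 1.49 in D1, 1.69 in G2 and 1.20 in H5, and the fitted log2 fold change was 0.49 (SE 0.069, fold 1.41, 95% interval 1.27 to 1.56, adjusted p = 0.00469 by edgeR). Without clone G2 the log2 fold change was 0.42 with an adjusted p of 0.067, so that the call was lost.

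In the *Cdk8* multiplex *Polr2a* was at 729 and 825 CPM in WT and at 851, 733 and 654 in B9, H4 and C8 under DMSO, and at 1025 in WT replicate 1 and at 1113.5, 930 and 1016 in B9, H4 and C8 under ATRi. Again every ATRi library was above every DMSO library. The ratios were 1.41 in WT replicate 1, 1.31 in B9, 1.27 in H4 and 1.55 in C8. The log2 fold change of 0.43 (SE 0.082, fold 1.35, 95% interval 1.19 to 1.53, unadjusted p = 0.000355) did not pass adjustment (adjusted p = 0.103 by edgeR), and passed under DESeq2 (0.000419). The library left out, WT replicate 2 under ATRi, was at 1001 and 1007 CPM in the 2 multiplexes, 1.22-fold above its own DMSO library in both. Both multiplexes hold the same WT RNA, so these are not independent results.

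Each ATRi library has a DMSO partner from the same clone, and with the clone as a block in edgeR more genes passed. In the *Cdk8* multiplex 3 of the 31 were called, against 11.3% of all tested genes: *Polr2a* (log2 0.46, adjusted p = 1.08e-05), *Polr2b* (0.15, adjusted p = 0.00461) and *Med1* (0.13, adjusted p = 0.0234). In the *Ccnc* multiplex *Polr2a* alone was called (0.52, adjusted p = 0.00301), where 2.43% of all genes were. *Polr2b* was at 303, 319, 290 and 307 CPM in WT replicate 1, B9, H4 and C8 under DMSO and at 342, 351, 319 and 343 under ATRi, higher in 4 of 4 pairs. *Med1* was at 164, 176, 160 and 160 CPM under DMSO and 181, 183, 172 and 190 under ATRi in the same order, higher in 4 of 4. In the *Ccnc* multiplex both genes were higher in 3 of 4 pairs and lower in D1, with ratios of 0.971 for *Polr2b* and 0.922 for *Med1*, and neither was called with the block. Without the block the log2 difference there was 0.06 for *Polr2b* (adjusted p = 0.578 by edgeR) and 0.05 for *Med1* (adjusted p = 0.675).

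**Figure D4:**
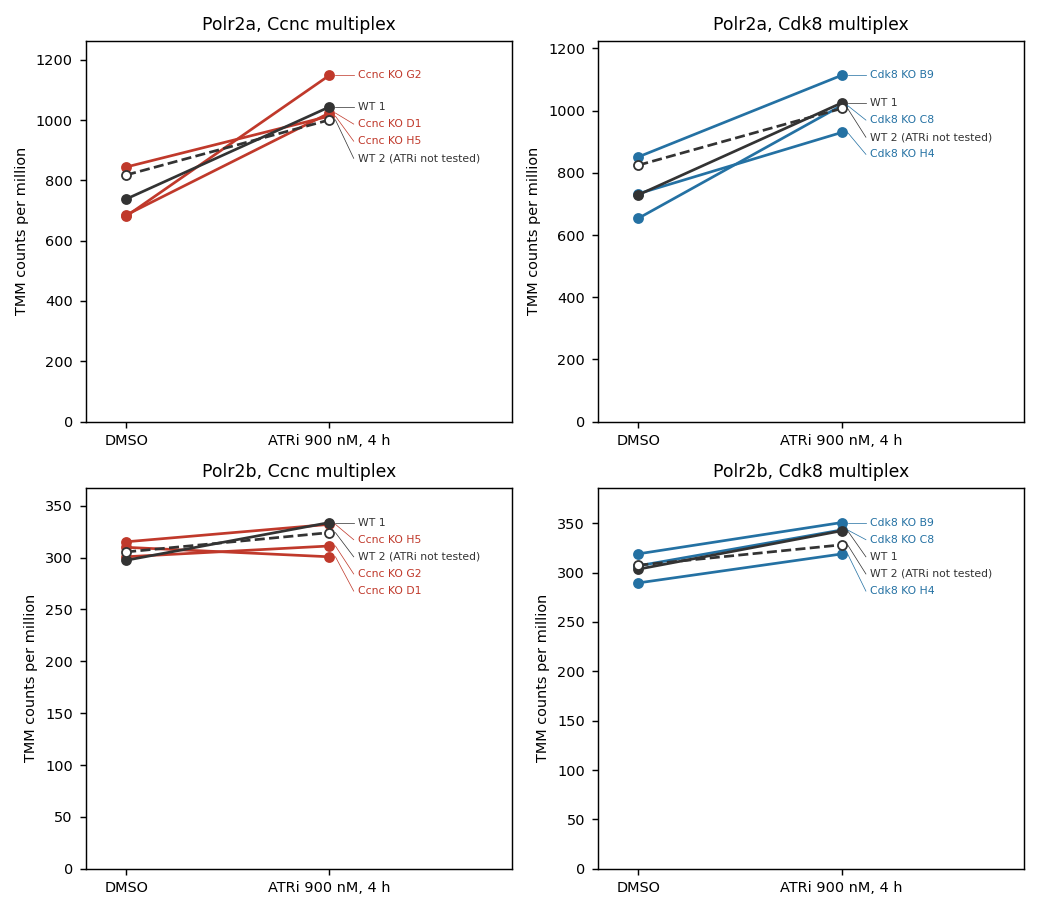
CPM (axis from 0) of *Polr2a* and *Polr2b* under DMSO and ATRi in each multiplex, a line joining the libraries of each clone or WT replicate; the dashed line with open points is WT replicate 2, whose ATRi library was not used in the fits. Every *Polr2a* line runs upward, from at most 851 CPM under DMSO to at least 930 CPM under ATRi, and for *Polr2b* the lines are closer to level.

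The other polymerase genes and the 26 Mediator genes showed no called difference under ATRi without the block. *Polr2c*, *Polr2d* and *Polr2e* had log2 differences of 0.07, -0.05 and 0.06 in the *Ccnc* and 0.03, 0.001 and 0.03 in the *Cdk8* multiplex. The 26 Mediator genes had a median of 0.002 in the *Ccnc* multiplex, with 13 above and 13 below 0, and of 0.02 in the *Cdk8* multiplex, with 18 above, where all genes had medians of -0.009 and -0.007. Their intervals stayed between 0.831-fold (*Med15*) and 1.26-fold (*Med29*) in the *Ccnc* multiplex and between 0.82-fold (*Med18*) and 1.20-fold (*Med4*) in the *Cdk8* multiplex. *Med4*, a middle subunit, had log2 0.14 in the *Cdk8* (adjusted p = 0.369 by edgeR) and 0.11 in the *Ccnc* multiplex (adjusted p = 0.314).

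**Figure D5:**
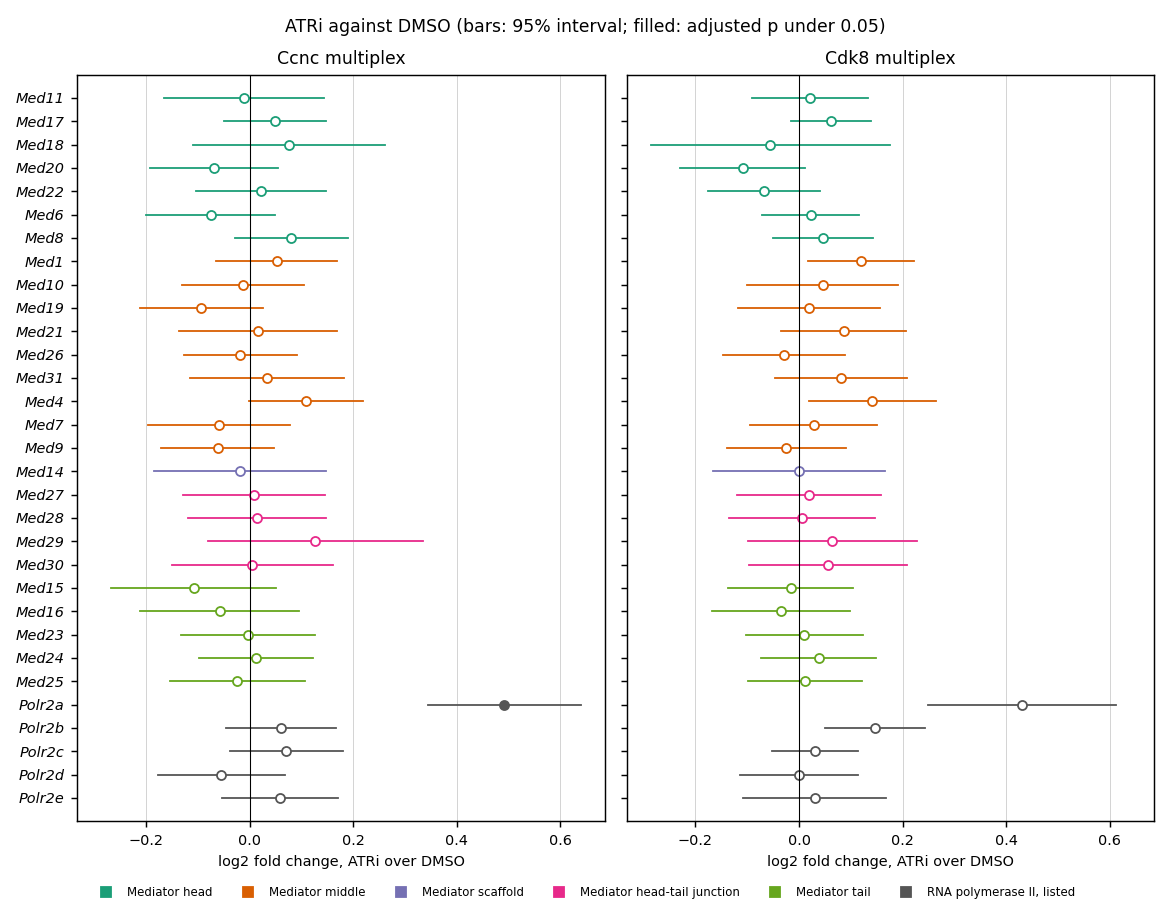
Log2 fold change of each of the 31 genes under ATRi against DMSO in the *Ccnc* (left) and the *Cdk8* multiplex (right), coloured by module, with bars for the 95% interval and a line at 0; a filled point passed the adjusted threshold. *Polr2a* stands apart at 0.49 (filled) and 0.43 (open), and the intervals of the 26 Mediator genes stay between -0.29 and 0.33.

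Whether the response to ATRi differed with genotype was tested as an interaction. The WT arm under ATRi is 1 library in each fit, and is assumed to vary as much as the libraries of the remaining groups do. In both knockouts 0 of 31 genes passed, as did 0% of all tested genes; 1 of 31 had an unadjusted p under 0.05 in *Ccnc* KO (2.13% of all genes) and 0 of 31 in *Cdk8* KO (1.36%). The 1 was *Med16* (log2 0.31, 95% interval 0.01 to 0.61, adjusted p = 1.00 by edgeR), at 48.4 CPM in WT replicate 1 and 52.0 in WT replicate 2 under DMSO and 41.6 in WT replicate 1 under ATRi, against 44.9 to 51.1 and 47.1 to 52.6 in the KO clones. The interaction of *Polr2a* was 0.10 (95% interval -0.23 to 0.43) with *Ccnc* KO and 0.04 (-0.39 to 0.47) with *Cdk8* KO, and differences in response of up to those sizes lie within the intervals. DESeq2 called 0 of the 31, and 0% of all genes, in either interaction.

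The genes that work beside the core were read in the same fits. Over all tested genes 12.3% were called in *Ccnc* KO and 4.31% in *Cdk8* KO, and 26.7% and 21.3% had an unadjusted p under 0.05. Under ATRi 1.11% and 0.0855% were called in the *Ccnc* and *Cdk8* multiplex, and 16.2% and 11.5% had an unadjusted p under 0.05. The counts below are of short lists and are to be read beside these shares. In the kinase module 2 of 7 genes were lower in *Ccnc* KO, *Ccnc* (log2 -2.93, adjusted p = 1.14e-08 by edgeR) and *Med13l* (-0.42, adjusted p = 0.00569), and 2 of 7 in *Cdk8* KO, *Cdk8* (-0.35, adjusted p = 0.0112) and *Med13l* (-0.29, adjusted p = 0.0252). Among super elongation complex genes, which release paused polymerase, 2 of 11 tested were called in *Ccnc* KO, *Aff1* higher (0.58, adjusted p = 0.00014) and *Aff4* lower (-0.29, adjusted p = 0.00496), and 0 in *Cdk8* KO (3 at an unadjusted p under 0.05). Of 7 cohesin and loader genes, *Mau2* was lower in both (-0.20, adjusted p = 0.0246, and -0.21, adjusted p = 0.0376). Of 18 general transcription factor genes and 7 other polymerase II subunit genes 0 were called in either knockout; at an unadjusted p under 0.05 there were 2 of 18 in each, and 3 of 7 in *Ccnc* KO and 0 of 7 in *Cdk8* KO. Under ATRi 0 genes of any of these lists were called by edgeR without the block in either multiplex; the 7 other polymerase subunits had log2 differences from -0.07 (*Polr2g*) to 0.27 (*Polr2k*, with an interval of -0.71 to 1.25) in the *Ccnc* multiplex. At an unadjusted p under 0.05 there were 0 of these 7 in both multiplexes, 0 and 1 kinase module genes, 1 and 1 cohesin genes, 3 and 3 general transcription factor genes and 4 and 1 super elongation complex genes in the *Ccnc* and *Cdk8* multiplex. Among the 12 polymerase II subunit genes *Polr2a* was the only one called in the *Ccnc* multiplex.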

How the data were processed

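Single-end, stranded poly(A) RNA-seq reads were trimmed by the authors with Trimmomatic 0.38, aligned with HISAT2 2.1.0 to GRCm38.p6 and counted per gene with featureCounts 2.0.1. The deposited values used here are raw counts per gene; the deposited log-transformed tables were not used. The 40 lane samples were summed to 20 libraries. Reads of genes with near copies can be lost or split by such counting. The 31 genes and all lists were chosen with earlier results of these data known. By rule, every value was given for members called in a comparison and for the largest and smallest difference in each knockout; other members and alternatives shown by library were chosen after their values were seen. Of other lists, up to 3 called genes each were named.

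CPM use TMM factors computed on all 10 libraries of a multiplex and all genes, which can differ from those of the fits. For the fits, counts were filtered by expression per genotype and treatment, scaled by TMM and tested with edgeR 4.0.16 (R 4.3.3, quasi-likelihood). Genotype and treatment were terms, and p-values were Benjamini-Hochberg adjusted over all genes tested, threshold 0.05. The second WT replicate given ATRi did not enter these fits, following the study, but entered the comparison of runs. Non-overlap compares all WT with all KO libraries of a fit. RPKM used exon lengths of GENCODE M21, which held all 55536 identifiers. In 3 of the 31 genes another gene's exon overlaps on the same strand (*Med20*, *Med23* and *Med24*). Alternatives were DESeq2 1.42.0, other size factors, no filter, DMSO libraries alone, each clone left out, all WT libraries and the clone as a block (limma 3.58.1 where random). Samples of 1 clone are 1 cell line, so the clone pairs them; deviations of the ATRi and DMSO libraries of a clone from their group means correlated at 0.034 (G2) to 0.802 (H4) over genes. Scripts were tested on simulated data. Promoters were read from RefSeq; in 23 of 26 the bases after the start were found in a transcript of the gene.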

Additional observations from a re-analysis of the deposited data

Results flagged for a closer look

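WT replicate 2 under ATRi, which no comparison above uses except that of the sequencing runs, held levels above every other library of its multiplex for the same 10 of the 31 genes in both multiplexes. The library stood apart over all genes too: 14.1% of all 18130 genes tested in both multiplexes were above every other library in both, and 17.3% were below. In CPM, first in the *Ccnc* and then in the *Cdk8* multiplex, the tail genes were at 254 and 251 (*Med24*), 231.5 and 227 (*Med25*) and 92.7 and 90.2 (*Med15*). The middle genes were at 202 and 206 (*Med1*), 93.4 and 95.6 (*Med9*), 52.3 and 51.6 (*Med26*) and 35.3 and 33.8 (*Med31*). The rest were *Med11* of the head at 49.0 and 47.7, *Med27* at 39.0 and 38.0, and *Polr2c* at 108 and 111. In the *Ccnc* multiplex the other libraries reached at most 204 CPM for *Med24*, 173 for *Med25* and 80.6 for *Med15*. A further 6 genes were below every other library in both multiplexes, *Med8*, *Med18*, *Med20*, *Med22*, *Med28* and *Med29*. The same RNA was sequenced in both multiplexes, so the second run repeats the library and not the culture. Its median ATRi to DMSO log2 difference over the 26 Mediator genes was 0.13 and 0.09 in the 2 multiplexes, against -0.02 to 0.05 in the other clones and WT replicate 1. The cause was not tested.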

How the results depend on the processing

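Of the 31 genes, 0 were called in *Cdk8* KO, in either interaction and between the knockouts under every alternative run. In *Ccnc* KO the count moved from 0 to 2 with no filter, to 2 with DESeq2 (all genes 2284, 2968 and 2636 in turn) and lay between 0 and 3 with a clone or WT replicate left out: without D1 it was 3 (*Med27*, *Med7* and *Med24*) and without H5 1 (*Polr2d*). Over all genes, 2640 of 18418 tested were called without D1 and 2067 of 18083 without H5. Under ATRi in the *Ccnc* multiplex it was 0 to 1 with one left out (0 without G2). In the *Cdk8* multiplex it was 1 with no filter, 1 with DESeq2 and 3 with the clone as a replicate block. *Polr2a* kept its direction under all 10 alternatives, at log2 0.42 to 0.57 (called in 9) and 0.38 to 0.46 (called in 3, adjusted p up to 0.786, without WT replicate 1).

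The median of the 26 Mediator genes was within 0.1 of 0 with 1 exception. With all WT libraries it was -0.039 in *Ccnc* KO, 0.026 and 0.048 under ATRi in the *Ccnc* and *Cdk8* multiplex, and -0.13 and -0.064 for the interactions, and with the clone as a replicate block 0.0073 for the *Cdk8* KO interaction. With one left out it ran from -0.016 to 0.027 in *Ccnc* KO (below 0 without D1 and, at -0.0024, without WT replicate 1), from -0.0499 to -0.0099 for the *Ccnc* interaction and from -0.028 to 0.013 for the *Cdk8* interaction. The interaction could not be fitted without WT replicate 1. By coding transcript length the levels spanned 37.3-fold with a median of 29.0 RPKM. The block changed no other call among the 31 genes. The cause of these moves was not tested.

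Over all genes, 2284 calls in *Ccnc* KO became 635 with DMSO libraries alone, 360 with a fold above 2 in addition, 289 without WT replicate 1 and 1387 without G2. The 806 in *Cdk8* KO became 5 with DMSO alone, 198 with a fold above 2, 1733 with DESeq2, 237 with the block, and 1 to 1512 with one left out (1 without WT replicate 1, 247 without C8, 263 without WT replicate 2, 1326 without H4 and 1512 without B9). The 206 under ATRi in the *Ccnc* multiplex became 845 with no filter, 653 with DESeq2, 41 with all WT libraries, 451 with the block, and 21, 25 and 34 without WT replicate 1, G2 and H5. The 16 in the *Cdk8* multiplex became 41, 381 and 2107 with no filter, DESeq2 and the block, and 0, 1, 4, 7 and 29 without WT replicate 1, C8, B9, WT replicate 2 and H4. The interactions had 0 and reached 20 (*Ccnc*, no filter) and 4 (*Cdk8*, block); the 1 call between knockouts became 4 with no filter, 11 without B9 and 43 with knockout libraries alone. With 1 WT library under ATRi, only large interactions could be detected.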
